A study of Mus musculus with 6 samples.

Results

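The ciliogenesis regulators described here are 10 genes named by a fixed list: Mcidas, Ccno, E2f4, Trp73, Myb, Foxj1, Rfx1, Rfx2, Rfx3 and Rfx5. The list holds genes of the multiciliated cell programme. It also holds Rfx1, a broadly used family member, and Rfx5, whose main known role is in the control of MHC class II genes. The 10 genes were read on an Illumina mouse bead array in total RNA of whole tracheas at E18.5, shortly before birth. The array carried 15 probes for them among 25697 probes in all. Probes were taken by gene symbol and not by a measured value, but the list was chosen with earlier results of these data known. The 3 mutant pools (genotype label Sox9-/-) are of embryos whose tracheal mesenchyme had no Sox9 and that formed no cartilage rings, and the 3 control pools are Sox9+/+. Both groups had the C57BL/6 background. With 3 tracheas to a pool there were 9 per group, taken from 7 pregnant females and pooled at random. The driver of the mesenchymal deletion is not given in the sources used here. A pool averages 3 embryos, so p-values measure the spread between pools.

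Multiciliated cells of the airway carry many motile cilia that move mucus out of the lung, and they arise from epithelial progenitors when Notch signaling is low. The nuclear protein encoded by Mcidas joins E2F4 or its relative E2F5 and the partner DP1 to switch on the genes for centriole amplification, among them Ccno, Myb and Deup1, as well as Foxj1. FOXJ1, a forkhead factor, and the RFX factors then drive the genes that build and move the axoneme, the microtubule core of the cilium.

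Mcidas and Ccno are neighbors on mouse chromosome 13 in RefSeq's annotation of GRCm38.p6. Ccno spans chr13:112987802-112990778 and Mcidas spans chr13:112993581-113000394, with 2803 bases between the end of the Ccno span and the start of the Mcidas span. A promoter window of 300 bases, 250 before and 50 after an annotated start, was found for 8 of the 10 genes, and the windows of Foxj1 and E2f4 were not analysed here. The core letters of the RFX binding site, GTTGCC or GGCAAC on the other strand, stood in the windows of 6 of these 8 genes (Mcidas, Ccno, Rfx1, Rfx2, Rfx3 and Trp73) and in 12.5% of 32851 windows of all genes. Sequence is shown for Mcidas, Ccno and Rfx2 because their match lies before the annotated start used for the window, with the RFX core in capitals. For Mcidas 30 bases around the match are given, since its window lies inside the annotated span of the gene. The start used for that window is therefore a later one than the start of the span, and the match lies between them. The printed bases are chr13:112993661.0-112993690.0 on the plus strand for Mcidas, chr13:112987552-112987801 on the plus strand for Ccno and chr17:56831009-56831258 on the minus strand for Rfx2, each read 5′ to 3′ toward the gene.
Mcidas: gggggaagccagGTTGCCaggttggttaac
Ccno: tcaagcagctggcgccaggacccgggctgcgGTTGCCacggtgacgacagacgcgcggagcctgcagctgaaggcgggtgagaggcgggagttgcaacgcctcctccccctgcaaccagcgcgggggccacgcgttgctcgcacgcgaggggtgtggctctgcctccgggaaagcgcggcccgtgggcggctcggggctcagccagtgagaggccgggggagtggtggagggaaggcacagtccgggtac
Rfx2: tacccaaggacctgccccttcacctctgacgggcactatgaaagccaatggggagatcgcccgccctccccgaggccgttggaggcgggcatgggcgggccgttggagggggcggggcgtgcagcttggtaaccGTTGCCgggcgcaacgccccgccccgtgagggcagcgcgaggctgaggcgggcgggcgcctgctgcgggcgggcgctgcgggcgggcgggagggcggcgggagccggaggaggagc
Counted from the start used for each window, the core begins at position -195 in Mcidas, at -219 in Ccno and at -116 in Rfx2. In the other 3 genes the core lies after the start, at position 2 in Rfx1, 32 in Rfx3 and 3 in the upstream window of the 2 windows of Trp73. The letters TTCCCGC of an E2F site, or GCGGGAA, were found at 2 places of that same Trp73 window and in no other member, against 4.6% of all windows. The forkhead letters TGTTTAC, or GTAAACA, were found in Myb alone, against 3.65% of all windows. These matches are a description of letters and were not tested as binding sites.

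The arrays were close in quality. Raw intensity had a median of 205 to 211 across mutant arrays and of 183 to 198 across control arrays, and 14468 to 14726 probes were detected per array (detection p below 0.05). The lowest detected raw intensity also differed, at 184 to 190 on the mutant arrays and 166 to 180 on the control arrays, so that raw values are given with it and differences were taken after background correction and normalization. The number of arrays limits the precision. The probe of Sox9 read at background on the 3 control arrays and only just above it on the mutant arrays (at least 1.12-fold higher in mutant pools, limma adjusted p = 0.0165). It gave no signal for the intact gene, and so does not check the labels. Col2a1, the main collagen of cartilage, read 4.94, 5.41 and 5.67 in the mutant pools, against 11.72, 11.68 and 11.70 in the control pools (log2), the direction that the label gives. Chondrocyte genes fell as a list, with 7 of 11 tested members called lower and a median difference of -2.21. Cytl1 fell by 5.56 and Matn1 fell by 2.85, each detected on 1 of 3 mutant arrays, and Hapln1 was at least 6.50-fold lower in the mutant pools, where none of the arrays read its probe above background. All arrays carry 1 slide number in the labels, with the control pools in its first positions, so position on the slide and group cannot be told apart.

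Of the 10 regulators, 7 had a probe detected on at least 3 arrays and were tested. Mcidas alone was called higher in mutant pools (limma adjusted p = 0.0342). Foxj1 and Ccno missed the threshold (limma adjusted p = 0.0555 and 0.0727). The confidence intervals of the log2 difference overlapped, at 0.57 to 1.46 for Mcidas, 0.29 to 0.99 for Foxj1 and 0.21 to 0.87 for Ccno. Whether the size of the difference varied between these genes was not tested. In the limma fit over 10802 genes, 234 genes (2.17%) were called higher in mutant pools at an adjusted p below 0.05 and 364 (3.37%) lower, 5.54% in all. With arrays scaled by their medians in place of quantiles, 54.9% of the called genes were higher, against 39.1% with quantiles. All 7 tested regulators had a difference above 0, as did 51.1% of all genes. The median difference of the 7 was 0.37 on the log2 scale, against 0.01 over all genes tested. In 5 of the 7 (Mcidas, Foxj1, Ccno, Trp73 and E2f4) every mutant value lay above every control value, which held for 15.3% of all genes, and in none of the 7 did every mutant value lie below, against 16.2% of all genes. Unadjusted p-values were below 0.05 for 5 of the 7 (Mcidas, Foxj1, Ccno, Rfx2 and Trp73), all higher in mutant pools, against 12.1% of all genes. Trp73, part of both counts, read close to the limit of detection.

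**Figure D1:**
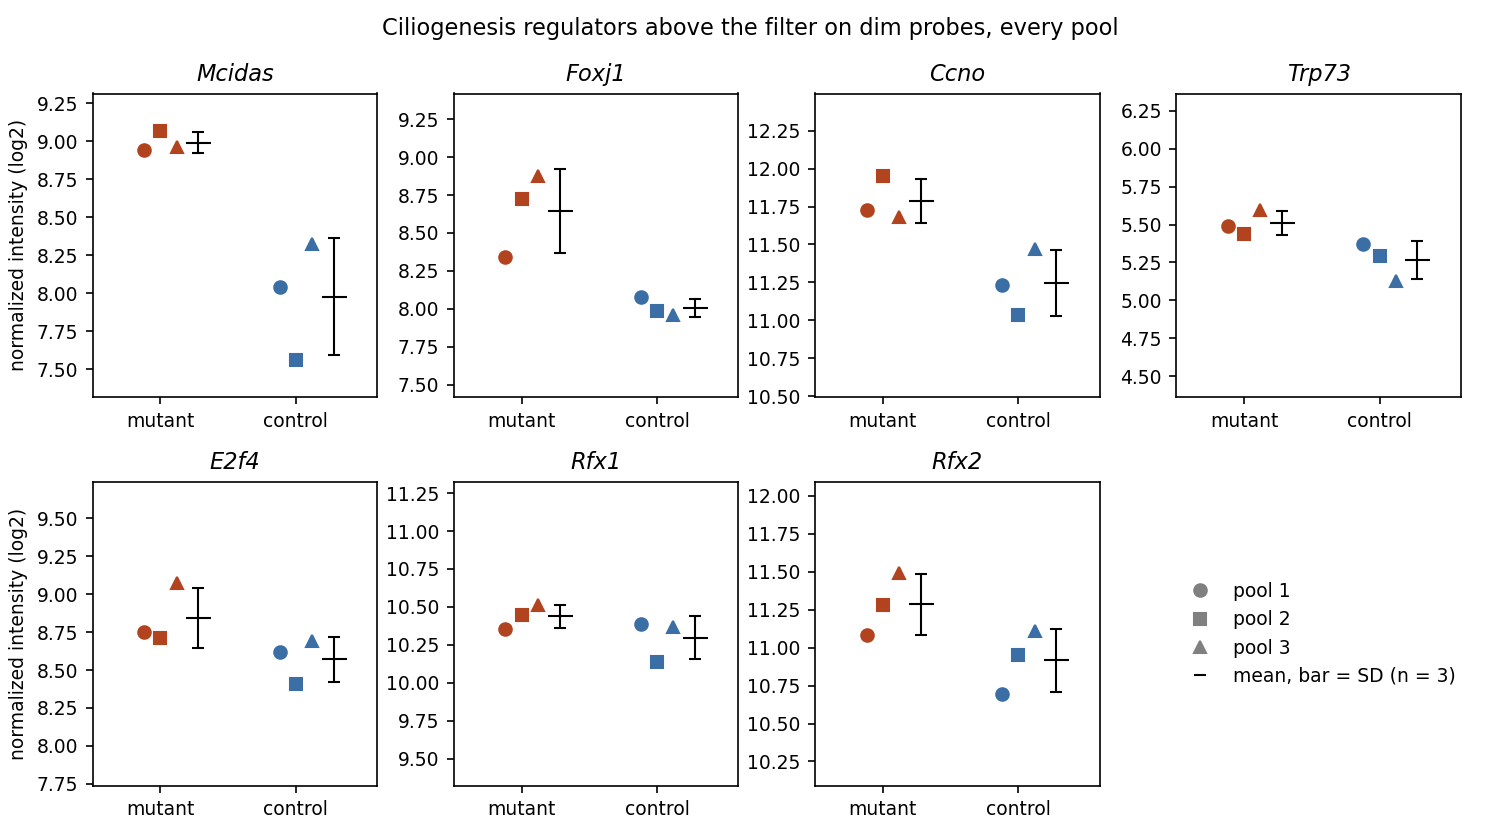
Normalized intensity (log2, vertical axis, each panel spanning 2 units) of the 7 tested regulators in mutant pools (left, red) and control pools (right, blue), with circles, squares and triangles for pools 1, 2 and 3 and the mean with its SD beside them. The mutant values of Mcidas lie between 8.94 and 9.07, above the control values of 7.56 to 8.32, while those of Rfx1 and Rfx2 overlap with the control values.

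Mcidas encodes multicilin, the coregulator that commits an epithelial progenitor to the multiciliated fate. Its probe is listed under LOC622408, the name made from the NCBI gene number of Mcidas, and was matched by that number. The raw intensity was 700.0, 726 and 688 in mutant pools 1, 2 and 3, against 367, 298 and 453 in control pools 1, 2 and 3. On the normalized log2 scale the values were 8.94, 9.07 and 8.96 in the mutant pools, against 8.04, 7.56 and 8.32 in the control pools. The mutant pools lay close together (SD 0.07) and the control pools were more spread (SD 0.39), with no overlap. Mcidas rose 2.02-fold (log2 difference 1.02, SE 0.19, 95% interval of the fold 1.48 to 2.76, limma adjusted p = 0.0342). In the authors' deposited table, where 3.59% of 15335 listed probes had an adjusted p below 0.05, its log2 fold change was 1.02 with an adjusted p of 0.0400. The call was lost in 5 of the 6 fits that left out 1 pool, with an adjusted p of 0.0704 without mutant pool 1, 0.123 without mutant pool 2, 0.0933 without mutant pool 3, 0.0585 without control pool 1 and 0.0520 without control pool 2, and the difference was 0.81 to 1.19 over the 6 fits.

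E2f4 encodes the DNA-binding partner of multicilin, and is used in many cell types as a cell cycle repressor. It read 8.75, 8.71 and 9.07 in mutant pools 1, 2 and 3, against 8.62, 8.40 and 8.69 in control pools 1, 2 and 3 (log2). The groups did not overlap, but mutant pool 2 lay close above control pool 3. The difference of 0.27 (SE 0.13, 95% interval -0.04 to 0.59) was not called (limma adjusted p = 0.254).

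Ccno encodes cyclin O, which is needed for the deuterosomes that multiply centrioles. The file lists its probe under the older symbol C86987. Its raw intensity was 3846, 4402 and 3673 in mutant pools 1, 2 and 3, against 2267, 2003 and 2981 in control pools 1, 2 and 3. The log2 values of 11.73, 11.95 and 11.68 in the mutant pools did not overlap with 11.23, 11.04 and 11.47 in the control pools. The difference was 0.54 (SE 0.14, 1.45-fold, 95% interval 1.16 to 1.83), and it missed the threshold (limma adjusted p = 0.0727). It passed in 3 of 10 other settings (adjusted p 0.0300 without background correction, 0.0488 with an offset of 50 and 0.0153 with a trended and robust variance). Of the 6 fits that left out 1 pool it passed in 0 (adjusted p 0.0834 to 0.203). In both Mcidas and Ccno, mutant pool 2 was the highest and control pool 2 the lowest of the 6 arrays, and control pool 3 was the highest of the control pools. Mutant pools 1 and 3 stood in opposite order in the 2 genes.

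Trp73 encodes p73, a relative of p53 that acts upstream of Foxj1 in multiciliated cells and is also found in airway basal cells. Its probe read close to the limit of detection, with raw intensities of 197, 191 and 202 in mutant pools 1, 2 and 3, against 169.5, 168 and 176 in control pools 1, 2 and 3. It was detected on 3 of 3 mutant arrays and 2 of 3 control arrays. The log2 values were 5.49, 5.44 and 5.59 in the mutant pools, against 5.37, 5.29 and 5.13 in the control pools. The groups did not overlap, and the difference of 0.24 (SE 0.10, 95% interval 0.0027 to 0.48) was not called (limma adjusted p = 0.194).

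Foxj1 encodes the forkhead factor that marks cells committed to motile cilia. Its raw intensity was 509.8, 598 and 658 in mutant pools 1, 2 and 3, against 372, 354 and 386 in control pools 1, 2 and 3. The log2 values were 8.34, 8.72 and 8.88 in the mutant pools, against 8.08, 7.99 and 7.96 in the control pools. The control pools lay close together (SD 0.06) and the mutant pools were more spread (SD 0.28), all above the control pools. The difference was 0.64 (SE 0.15, 1.56-fold, 95% interval 1.22 to 1.98), just outside the threshold (limma adjusted p = 0.0555). It passed in 5 of 10 other settings (adjusted p 0.0312 without background correction, 0.0384 with an offset of 50, 0.0364 with array medians, 0.0455 among probes detected on all 6 arrays and 0.0234 with a trended and robust variance). Of the 6 fits that left out 1 pool it passed in 1, that without mutant pool 1, the lowest mutant pool (difference 0.79, adjusted p = 0.0351). The adjusted p was 0.171 without mutant pool 2 and 0.136 without mutant pool 3. It was 0.0838, 0.143 and 0.146 without control pools 1, 2 and 3. In the authors' deposited table its log2 fold change was 0.64 with an adjusted p of 0.0660.

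**Figure D2:**
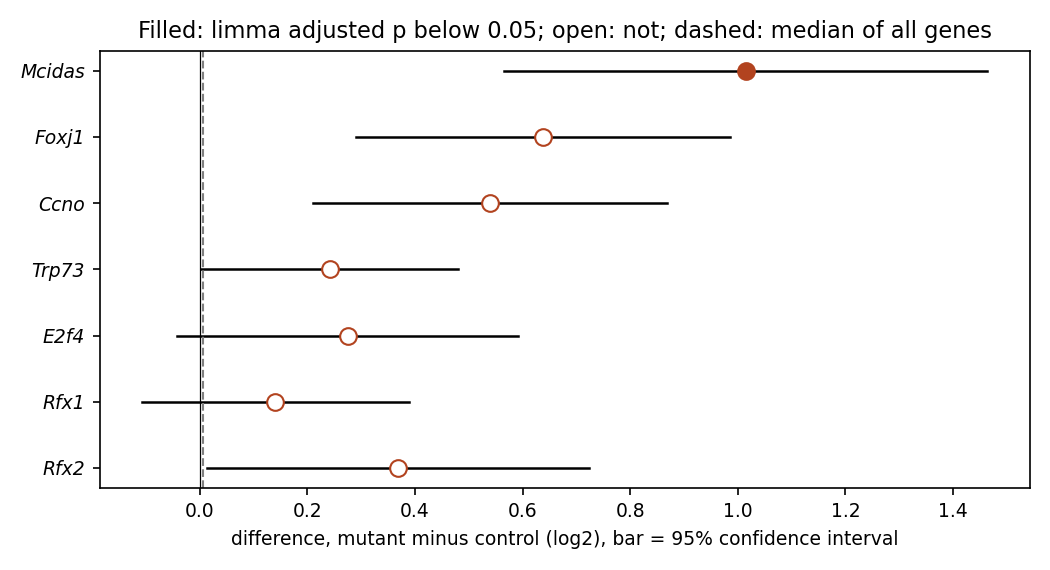
Difference between mutant and control pools (log2, horizontal axis) of the 7 tested regulators, with the 95% confidence interval of the limma fit as a line. The filled point is Mcidas at 1.02, the one regulator called, and the open points run from 0.14 for Rfx1 to 0.64 for Foxj1.

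RFX factors bind the X-box of ciliary promoters, and RFX2 and RFX3 act with FOXJ1 in multiciliated cells. Rfx2 read 11.08, 11.28 and 11.49 in mutant pools 1, 2 and 3, against 10.69, 10.95 and 11.11 in control pools 1, 2 and 3 (log2). Mutant pool 1 lay below control pool 3, so the groups overlapped. The difference of 0.37 (SE 0.15, 95% interval 0.01 to 0.72) was not called (limma adjusted p = 0.186). Rfx1, a broadly used member of the family, was read by 2 probes. The brighter probe gave 10.36, 10.45 and 10.51 in the mutant pools and 10.39, 10.14 and 10.37 in the control pools, which overlapped, and a difference of 0.14 (SE 0.10, 95% interval -0.11 to 0.39, limma adjusted p = 0.453). The dimmer probe gave 6.56, 6.91 and 6.79 in the mutant pools and 6.48, 6.60 and 6.36 in the control pools, with a probe-level difference of 0.27 (SE 0.12, limma adjusted p = 0.238). Both probes thus differed in the same direction without a call.

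Myb, Rfx3 and Rfx5 could not be measured at this signal. MYB promotes centriole amplification early in the programme and is also a factor of blood progenitors, and its 2 probes were detected on 1 and on 0 of the 6 arrays. The brighter one had raw intensities of 192, 184 and 186 in mutant pools 1, 2 and 3, against 143, 166 and 177 in control pools 1, 2 and 3. The 4 probes of Rfx3 were each detected on at most 1 array, and their raw intensity ran from 166 to 189 in mutant pools and from 138 to 177 in control pools. Rfx5, whose protein drives the genes of MHC class II and is not a cilium regulator by its main known role, read 168, 174 and 167 in mutant pools, against 151, 155 and 158 in control pools, and was detected on 0 arrays. Both groups lay at background, so no fold is given, and the values do not say that the genes were silent. The higher raw values in mutant pools go with the higher detection limit of those arrays.

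**Figure D3:**
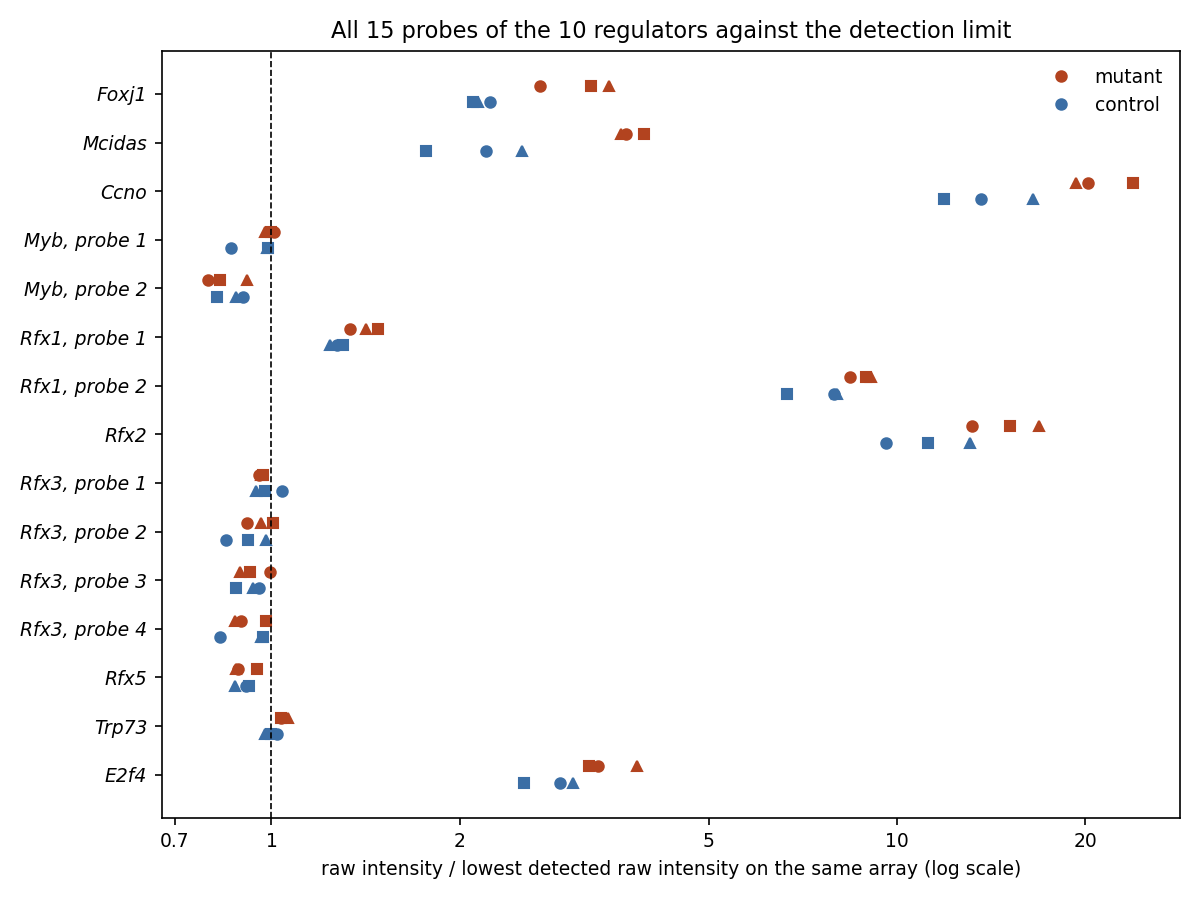
Raw intensity of all 15 probes of the 10 regulators, divided by the lowest detected raw intensity on the same array (horizontal axis, log scale; dashed line at 1), in mutant pools (red, upper row of each probe) and control pools (blue, lower row), with circles, squares and triangles for pools 1, 2 and 3. The probes of Myb, Rfx3 and Rfx5 lie between 0.792 and 1.04, that of Trp73 between 0.975 and 1.06, and those of the other genes at 1.24 or above.

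Bead numbers bear on single arrays. Each Mcidas value rests on 39 to 57 beads, with a bead standard error of 3.19% to 3.98% of the signal, and each Foxj1 value rests on 36 to 45 beads with 3.44% to 4.86%. Among the tested regulators the fewest beads, 20, stood behind Trp73 in control pool 1.

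The partners of the regulators did not move as 1 group. None of 13 tested partners passed over all genes, and 7 of 13 had a difference above 0 (median 0.18). Unadjusted p-values were below 0.05 for 6 higher and 1 lower member, where 12.1% and 13.1% of all genes were. Besides E2f4, the E2F and DP partners of multicilin on this list had differences below 0, none called and all with overlap between the groups. E2f5 had -0.10 (SE 0.10, limma adjusted p = 0.576). Tfdp1, which encodes DP1, had -0.11 (SE 0.10, limma adjusted p = 0.545). Tfdp2, which encodes DP2, had -0.38 (SE 0.15, limma adjusted p = 0.169). E2f4, at 0.27, was not called either (limma adjusted p = 0.254), so the contrast in direction rests on uncalled values. Gmnc, whose protein GEMC1 acts upstream of multicilin, had -0.28 (limma adjusted p = 0.393). Its probe read close to the limit of detection, at 4.77 to 5.55 (log2), where the lowest detected value was 5.24 to 5.30. It was detected on 2 of 3 mutant arrays and 2 of 3 control arrays, so its direction is not secure. The epithelial factors stood above 0: Foxa2 had 0.84 (SE 0.21, limma adjusted p = 0.0690) and Trp63, the master factor of basal cells, had 0.47 (SE 0.12, limma adjusted p = 0.0646). Foxn4, a forkhead factor that acts beside multicilin in frog skin, read 8.63, 8.67 and 8.48 in mutant pools, against 7.90, 7.65 and 8.30 in control pools (log2; difference 0.64, limma adjusted p = 0.0775). Gmnc, Foxn4, E2f5, Tfdp1 and Tfdp2 were singled out after their values were seen. As in Mcidas and Ccno, control pool 2 was the lowest and control pool 3 the highest of the control pools in Foxn4.

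Among 12 tested genes of centriole amplification none passed, 8 had a difference above 0 and the median was 0.17. Deup1, which encodes the scaffold of the deuterosome, read 7.19, 7.18 and 7.40 in mutant pools 1, 2 and 3, against 5.90, 6.41 and 6.97 in control pools 1, 2 and 3 (log2). All mutant values lay above the control values, and the difference of 0.83 (SE 0.25, limma adjusted p = 0.105) was not called. Cep164, a protein of the distal appendages of basal bodies, had 0.29 (SE 0.10, limma adjusted p = 0.121). Plk4, the kinase that starts centriole duplication in all cycling cells, had -0.15 (SE 0.10, limma adjusted p = 0.396; chosen after its value was seen).

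Genes of the motile cilium itself were higher in value without passing the test. None of 29 tested members was called, while all 29 had a difference above 0 (median 0.43, range 0.04 to 0.85), against 51.1% of all genes. All mutant values lay above all control values in 6 of the 29, against 15.3% of all genes, a share near that background. Ccdc39, which sets the repeat length of the axoneme, read 9.14, 9.04 and 9.67 in mutant pools 1, 2 and 3, against 8.53, 8.72 and 8.75 in control pools 1, 2 and 3 (log2; difference 0.62, SE 0.17, limma adjusted p = 0.0902). Rsph9, a radial spoke protein, had a difference of 0.55 (SE 0.16, limma adjusted p = 0.0992). The genes share their pools: the mean deviation of the list from its level over 6 arrays was -0.04, 0.12 and 0.56 in mutant pools 1, 2 and 3, against -0.58, -0.08 and 0.01 in control pools 1, 2 and 3. Mutant pool 3 was high and control pool 1 low, and mutant pool 1 fell below control pool 3. In Mcidas and Ccno, by contrast, mutant pool 3 was not the highest nor control pool 1 the lowest pool. Leaving out mutant pool 3 gave the list a median of 0.26, and leaving out control pool 1 gave 0.25.

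**Figure D4:**
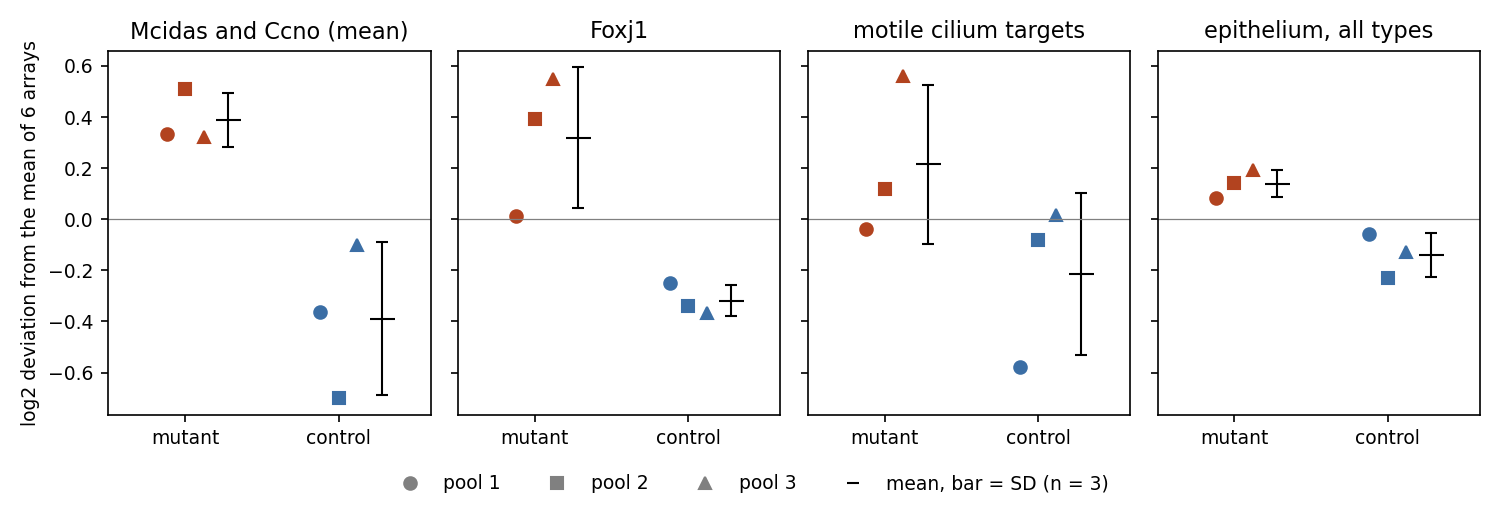
Deviation from the mean over the 6 arrays (log2, vertical axis) of the mean of Mcidas and Ccno, of Foxj1, of the 29 motile cilium targets and of the 9 epithelial genes, in mutant pools (left, red) and control pools (right, blue), with circles, squares and triangles for pools 1, 2 and 3 and the mean with its SD beside them. The groups are apart for Mcidas and Ccno, for Foxj1 and for the epithelial genes, and overlap for the motile cilium targets, where mutant pool 3 stands at 0.56 and control pool 1 at -0.58.

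In the list of intraflagellar transport and the BBSome, the carriers that supply all cilia and targets of RFX factors, none of 20 tested genes passed, 19 had a difference above 0 and the median was 0.22. Ttc8, a BBSome subunit, had 0.39 (SE 0.10, limma adjusted p = 0.0713) and Traf3ip1, an intraflagellar transport subunit, had 0.58 (SE 0.17, limma adjusted p = 0.0923). Among 8 tested MHC class II genes, which RFX5 controls, none passed, 7 had a difference above 0 and the median was 0.26. H2-Eb1, a class II beta chain, had 0.69 (SE 0.16, limma adjusted p = 0.0550) and Cd74, the invariant chain, had 0.60 (SE 0.14, limma adjusted p = 0.0612).

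**Figure D5:**
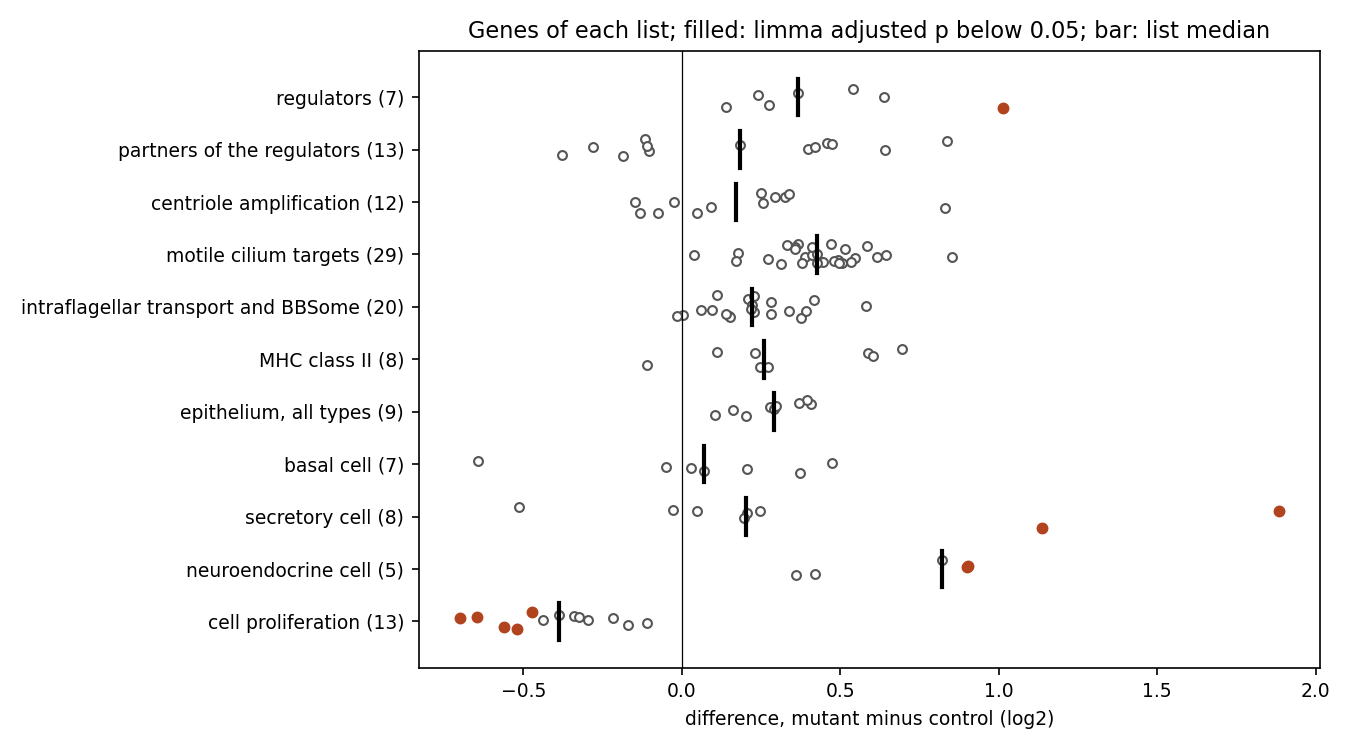
Difference between mutant and control pools (log2, horizontal axis) of every tested gene in 11 lists, with the number of genes in brackets, filled points for genes called by limma at an adjusted p below 0.05 and a bar at the median of each list. The 29 motile cilium targets lie above 0 with no filled point, Mcidas at 1.02 is the filled point among the regulators, and the 13 cell proliferation genes lie below 0.

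Differences of epithelial markers were above 0, as were those of the 7 tested regulators, and none of these markers passed the test. In whole tracheas, more cells of a type and more RNA per cell cannot be told apart. Of 10 genes shared by all epithelial types 9 were tested, all 9 had a difference above 0, and the median was 0.29. Their summed normalized intensity was 29422 to 31212 in mutant pools, against 23546 to 26518 in control pools. Krt18, a keratin of simple epithelia, had 0.41 (SE 0.11, limma adjusted p = 0.0788), and the cell adhesion gene Cdh1 had 0.28 (SE 0.10, limma adjusted p = 0.141). Set against the mean of the 9 epithelial genes on the same array, the log2 level of Mcidas was -1.60, -1.53 and -1.68 in mutant pools 1, 2 and 3, against -2.35, -2.66 and -2.00 in control pools 1, 2 and 3. The groups did not overlap on this measure and differed by 0.74. The 9 genes are shared by all epithelial types, so this measure does not set Mcidas against the number of multiciliated cells. The same measure of Foxj1 was -2.20, -1.87 and -1.77 in mutant pools, against -2.32, -2.23 and -2.36 in control pools, apart by 0.36, and that of Ccno differed by 0.26 with overlap. For E2f4, Rfx1, Rfx2 and Trp73 this difference lay between -0.14 and 0.09. Set against the mean of the 8 secretory genes, Mcidas differed by 0.62 and Foxj1 by 0.24, both without overlap, and Ccno by 0.14 with overlap. The secretory genes differed unevenly, with Bpifa1 at 1.89, Muc5ac at 1.14 and Agr2 at -0.51. The bright genes Scgb1a1, Scgb3a1, Scgb3a2, Cyp2f2 and Cbr2 lay between -0.03 and 0.25. Set against the mean of the 29 motile cilium targets, Mcidas differed by 0.59, Foxj1 by 0.21 and Ccno by 0.11, all with overlap. For Mcidas, mutant pool 3 at -1.83 then lay below control pool 1 at -1.61. These are descriptions on scales without a test.

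The other cell types of the airway went different ways. In the secretory list 2 of 8 tested genes rose, the club cell product Bpifa1 (3.70-fold, log2 difference 1.89, SE 0.27, limma adjusted p = 0.0201) and the mucin gene Muc5ac (2.20-fold, 1.14, SE 0.24, limma adjusted p = 0.0444), where 2.17% of all genes were called higher. Agr2 of the same list, which encodes a protein disulfide isomerase of mucous cells, had -0.51 (SE 0.18, limma adjusted p = 0.139; chosen after its value was seen), with every mutant value below every control value. The summed intensity of the secretory list was 131934 to 136502 in mutant pools, against 117724 to 126331 in control pools. Of 7 tested basal cell genes none passed, and 5 had a difference above 0 (median 0.07). Trp63, also on this list, had 0.47 (limma adjusted p = 0.0646), while Krt5, a keratin of basal cells, had -0.64 (SE 0.22, limma adjusted p = 0.141). The summed intensity of 17266 to 19066 in mutant pools overlapped with 15494 to 18253 in control pools. Of 5 tested neuroendocrine genes 2 rose, where 2.17% of all genes were called higher. These were the synaptic vesicle gene Syp (log2 difference 0.90, SE 0.13, limma adjusted p = 0.0201) and the secretory granule gene Resp18 (0.90, SE 0.15, limma adjusted p = 0.0263). The summed intensity was 985 to 1309 in mutant pools, against 613 to 665 in control pools. Chga and Chgb, also on the neuroendocrine list, did not reach detection on 3 arrays. Of 5 tested haematopoietic genes, relevant to Myb, 1 fell, where 3.37% of all genes were called lower. This was Gata2, a factor of blood progenitors and mast cells (-0.88, SE 0.18, limma adjusted p = 0.0428). Runx1 of the same list went the other way, with 0.44 (SE 0.13, limma adjusted p = 0.0993), and was chosen after its value was seen. It was the 1 gene of the 5 above 0, and every mutant value lay above every control value. The median of that list was -0.26, with a summed intensity of 32118 to 36630 in mutant pools, against 35604 to 38917 in control pools. Ptprc, Gata1 and Spi1 of that list did not reach detection on 3 arrays. The count of called genes was 0 without mutant pool 2 or 3 for the secretory list, 0 without control pool 2 or 3 and 1 without mutant pool 2 or 3 for the neuroendocrine list, and 0 without any 1 pool other than mutant pool 1 for the haematopoietic list. The part of these markers in the regulators' values was not tested.

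Cell proliferation genes are bound by E2F4 and its relatives. Of 13 tested members 5 fell and 8 did not pass, where 3.37% of all genes were called lower. All 13 had a difference below 0 (median -0.39, against 0.01 over all genes). Rrm2, which makes DNA precursors, fell by 0.70 (SE 0.11, limma adjusted p = 0.0213), and the mitotic genes Kif11, Birc5 and Plk1 fell by 0.64, 0.56 and 0.52 (limma adjusted p = 0.0316, 0.0457 and 0.0299). The count was 0 in 4 of the 6 fits without 1 pool, those without mutant pool 2 or 3 or control pool 2 or 3, and 3 in the other fits.

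The genes most like Foxj1 over the 6 arrays, by Pearson's correlation among 10802 genes, were Cyp4b1 (0.998), Tap2 (0.996), Aldh1a7 (0.993), Cxcl9 (0.992) and Slc44a3 (0.992). The points are 6 arrays in 2 groups, so that a shared group difference alone gives a high value, and the value is a description. Cyp4b1, a cytochrome P450 of the airway, read 8.16, 8.50 and 8.62 in mutant pools 1, 2 and 3, against 7.96, 7.91 and 7.84 in control pools 1, 2 and 3 (log2; difference 0.52, limma adjusted p = 0.0720). Tap2, a peptide transporter of antigen presentation, rose by 0.65 (limma adjusted p = 0.0415), and the chemokine gene Cxcl9, not above background in control pools, was at least 1.30-fold higher (limma adjusted p = 0.0288). Aldh1a7, an aldehyde dehydrogenase, had 0.22 (limma adjusted p = 0.199), and Slc44a3, a choline transporter-like gene, had 0.56 (limma adjusted p = 0.0637). In all 5, as in Foxj1, mutant pool 3 was the highest and mutant pool 1 the lowest of the mutant pools. The 5 genes were picked by their likeness to Foxj1 on these same arrays, so the shared order follows from the choice. No motile cilium gene was among the 5.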

How the data were processed

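RNA of 3 mutant and 3 control pools was read on Illumina bead arrays. Per the file headers, the authors' unnormalized table gives each probe's raw intensity, the bead standard error, the number of beads as a count, and a p-value of detection. The deposited log2 values, made by the authors with R 3.2.3 and limma 3.26.9 per the submitters' processing notes, lie within 0.0170 of those computed here. A further deposited limma table lists fold changes (log2, mutant minus control) with p-values. Here neqc of limma 3.58.1 (R 4.3.3) corrected background through the detection p-values, added an offset of 16 and normalized quantiles. The filter kept 14711 probes, those whose detection p was below 0.05 on 3 or more arrays, and the brightest stood for its gene. Of 18120 symbols, 12036 were current in RefSeq (GRCm38.p6), 5218 were updated by synonym, 260 by gene number (LOC622408 is Mcidas) and 606 kept. limma's lmFit and eBayes tested mutant minus control, two-sided, with Benjamini-Hochberg adjustment over 10802 genes, and was tested on simulated data. A gene is "called" at an adjusted p below 0.05. For a probe not above background on any array of a group, a fold is a bound against the lowest detected signal.

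Members and lists were chosen with earlier results of these data known. Named genes were the members, Sox9, up to 4 called genes per list with the largest change (else up to 2 with the smallest p), and the 5 genes most correlated with Foxj1. Genes marked above as chosen or singled out after their values were seen fall outside this rule. Alternatives were other background corrections, offsets, scalings, filters, probe summaries, variances and sources, blocking on pool number, and the normalized values less 1 pool at a time. The authors' table was added as an alternative after seeing the data. The probe sequences were not used here, so that a probe's gene rests on its symbol.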

Additional observations from a re-analysis of the deposited data

How the results depend on the processing

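Over all settings run, no difference of a tested regulator changed sign. The other filters, the other variance and the replicate block reuse the same normalized values, so they could not change a sign. The deposited values were nearly the same as those computed here. The sign was thus open to change mainly with the other background, offset and scaling settings and in the fits without 1 pool. Mcidas kept its call in 9 of 10 settings other than leaving out a pool. Pool numbers do not pair the samples: pools were made at random, and the deviations of same-numbered pools correlated at -0.0120, -0.0854 and -0.105. With the pool number as a replicate block all the same, Mcidas had 1.02 with an adjusted p of 0.0751, 0 regulators and 119 genes were called, and the counts were 0 for cell proliferation, 0 for secretory, 1 for neuroendocrine and 0 for haematopoietic genes.

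Without background correction, Foxj1 (0.44) and Ccno (0.51) passed, 3 regulators and 950 genes were called, with 6 partners and 1 each of motile cilium, intraflagellar transport, MHC class II, epithelial and basal genes, and the medians were 0.15 for MHC class II, 0.23 for neuroendocrine and -1.09 for chondrocyte genes. With an offset of 50, Foxj1 (0.58) and Ccno (0.53) passed, 3 regulators were called, with 2 partners, 2 MHC class II genes and 1 basal gene, and the medians were 0.48 for neuroendocrine and -1.94 for chondrocyte genes. With array medians, Foxj1 passed (0.73), 2 regulators were called, with 1 partner, 2 MHC class II, 3 cell proliferation, 1 basal and 0 haematopoietic genes, and the medians were 0.26 for partners and -0.32 for cell proliferation. Among probes detected on all 6 arrays, Foxj1 passed (0.64), 2 regulators, 1 MHC class II and 1 chondrocyte gene were called, and the medians were 0.29 for partners and -0.27 for chondrocyte genes, since this filter drops genes that fell to background. With no filter, 390 genes were called, with 3 cell proliferation, 1 secretory and 0 haematopoietic genes, and the medians were 0.051 for partners, 0.42 for neuroendocrine and -1.30 for chondrocyte genes. With the mean of kept probes, 1 MHC class II gene was called and the chondrocyte median was -2.46. With a trended and robust variance, Foxj1 (0.64) and Ccno (0.54) passed, 3 regulators and 1080 genes were called, with 6 partners, 2 motile cilium, 1 intraflagellar transport, 2 MHC class II, 1 epithelial and 1 basal gene. The causes were not tested.

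Leaving out each pool in turn gave 0 to 1 called regulator, 85 to 574 called genes, and differences of 0.52 to 0.79 for Foxj1 and 0.81 to 1.19 for Mcidas. Counts of called genes ran from 0 to 3 for cell proliferation and neuroendocrine, 0 to 2 for partners and secretory, and 0 to 1 for basal, epithelial, haematopoietic and MHC class II genes. Medians ran from -0.051 to 0.36 for partners, -0.46 to -0.34 for cell proliferation, 0.19 to 0.39 for MHC class II, 0.63 to 0.94 for neuroendocrine, -0.39 to -0.10 for haematopoietic and -2.42 to -2.06 for chondrocyte genes. Signal over background limits Trp73, Myb, Rfx3 and Rfx5.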
